A study of Mus musculus with 24 samples.

Results

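Arl4d, 1 gene of the 55335 in the deposited count table, was described liver by liver across 6 groups of genotype and diet. It was taken as the row whose name is Arl4d (ENSMUSG00000034936.2, protein coding). The gene was chosen by its measured levels on the ketogenic and control diets, lower on the ketogenic diet in 1 genotype and higher in the other. Its levels in the control and ketogenic livers are therefore given as a description, with no test. Arl4d lies on chromosome 11 from 101665541 to 101667832 on the plus strand of GRCm38, a span of 2292 bases. The GENCODE annotation gives it 1 transcript with 2 exons and 1382 exon bases, and 0 other annotated genes overlap it.

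ARF and ARF-like proteins are small GTPases that switch between GTP-bound and GDP-bound forms on membranes and act in membrane traffic and on the cytoskeleton. Exchange factors such as the cytohesins load them with GTP, and GTPase-activating proteins return them to the GDP form. Among the family genes measured here, Arl4a and Arl4c belong to the same subgroup as Arl4d, and Arl4c is also known as a gene induced by the oxysterol receptors LXR.

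Liver polyA RNA came from 24 female mice, 4 in each group. Wild-type (WT) mice were B6129SF2/J, and 3xTg-AD (3xTg) mice carry mutant human APP and tau transgenes under a neuronal Thy1 cassette together with a mutant presenilin knock-in. The wild-type animals are a separate mouse line, so the transgenes and other differences between the lines cannot be told apart. From 3 months of age the mice ate 1 of 3 diets for 6 months. All diets were 10% protein. The control diet was 70% carbohydrate with 20% of long-chain triglyceride (4.1 kcal/g), and the ketogenic diet (KD) replaced carbohydrate with fat, at 90% long-chain triglyceride (6.7 kcal/g). In the MCT diet (4.1 kcal/g) the fat of the control diet was split into 10% each of medium-chain and long-chain triglyceride. Libraries held 12009432 to 20108831 counts on genes. The 8 hepatocyte markers measured, albumin among them, had counts in every group and summed to 92658 to 176729 CPM, counts scaled to a common library size. Sums over marker genes use library size alone, and other CPM values are also scaled by TMM factors unless stated.

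The 250 bases before the annotated start of Arl4d (GRCm38.p6 from RefSeq, chr11:101665291-101665540, plus strand) are shown for a short sequence that they hold. The capitals mark the cAMP response element TGACGTCA, the palindrome known to be bound by CREB and ATF proteins.
Arl4d promoter: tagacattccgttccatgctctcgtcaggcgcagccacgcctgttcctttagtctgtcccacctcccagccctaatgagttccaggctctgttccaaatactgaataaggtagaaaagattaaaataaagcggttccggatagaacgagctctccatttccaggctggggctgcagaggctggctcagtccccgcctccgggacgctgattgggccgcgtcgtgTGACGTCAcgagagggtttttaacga
The capitals begin 26 bases before the start. The same letters, which read alike on both strands, stood in the 250 bases before the start in 508 of 32851 RefSeq promoters, or 1.55%. The D-box, another motif of 8 letters, stood in 0.819%. It is not a palindrome and could match on either strand, so the 2 shares are not on a like footing. Whether the response element is rare for its length was not tested. A CCAAT box lay on the minus strand, printed here as attgg from 42 bases before the start. CCAAT occurred on either strand in 33.8% of promoters. No match was found on either strand to the E-box CACGTG, the GC box GGGCGG, the TATA box TATAAA, the D-box TTATGTAA or the receptor half-site AGGTCA. The 2 promoters listed for Arl4a and the 1 for Arl4c did not hold the response element letters. The motifs were chosen after the sequence had been read, and a match shows letters in this window, not a bound site.

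Arl4d was highest in WT livers on control diet and 3xTg livers on KD, and lowest in WT livers on KD and 3xTg livers on control diet. WT control livers 1 to 4 held 12.2, 11.7, 17.9 and 34.3 CPM of Arl4d, a mean of 19.1 ± 10.6 (SD, n = 4). WT KD livers 1 to 4 held 6.29, 6.90, 4.83 and 5.53 CPM, a mean of 5.89 ± 0.899 (SD, n = 4). All 4 WT KD livers lay below all 4 WT control livers, and control liver 4 stood farthest from the mean of its group. In 3xTg mice the order was turned: control livers 1 to 4 held 6.48, 6.08, 5.62 and 6.18 CPM, a mean of 6.09 ± 0.355 (SD, n = 4). The 3xTg KD livers held 21.2, 17.7, 28.1 and 13.9 CPM, a mean of 20.2 ± 6.03 (SD, n = 4). Every 3xTg KD liver lay above every 3xTg control liver, and the lowest of them was also above every WT KD liver. In bulk liver RNA, fewer cells expressing the gene and less RNA per cell cannot be told apart.

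The MCT livers played no part in choosing the gene, and the means of both MCT groups lay between these levels. WT MCT livers 1 to 4 held 16.1, 10.4, 3.50 and 8.09 CPM of Arl4d, a mean of 9.54 ± 5.26 (SD, n = 4). The 3xTg MCT livers held 5.42, 4.52, 6.96 and 14.5 CPM, a mean of 7.84 ± 4.53 (SD, n = 4). Liver 4 of the 3xTg group and liver 1 of the WT group stood above the other 3 livers of their group, and the ranges of the 2 groups overlapped widely. WT MCT liver 3 was lower than every WT KD liver, and 3xTg MCT livers 1 and 2 were lower than every 3xTg control liver.

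**Figure D1:**
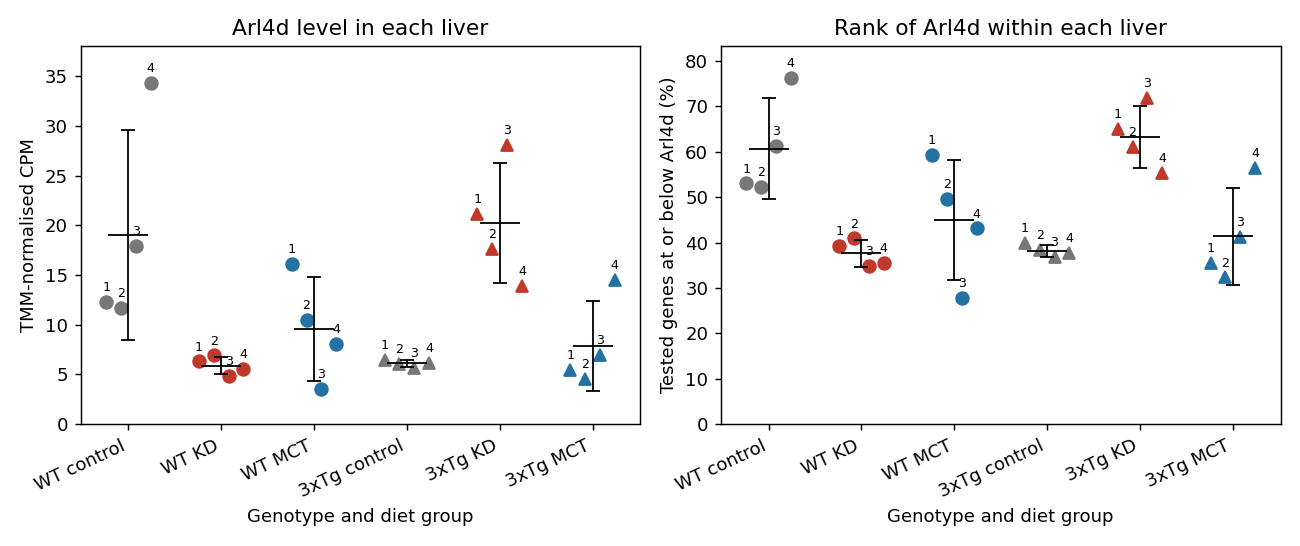
Arl4d in each liver as TMM-normalised CPM (left) and as the percent of the 13281 tested genes at or below it in that liver (right), by genotype and diet. Points carry the replicate number, circles are WT and triangles 3xTg, and bars are the mean ± SD over 4 livers. WT KD and 3xTg control livers sit together at the bottom of both plots.

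Ordered by mean, the groups ran WT KD, 3xTg control, 3xTg MCT, WT MCT, WT control and 3xTg KD. Neighbours in that order overlapped in every case, and each step in mean was smaller than the larger SD of the pair. Counting liver pairs, the next group was higher in 9, 8, 10, 14 and 10 of 16 pairs along the order. Ranking Arl4d within each liver, a measure that needs no scaling between libraries, gave the same extremes. Arl4d stood at or above 60.7% ± 11.1 (SD, n = 4) of the 13281 tested genes in WT control livers and 37.6% ± 2.94 (SD, n = 4) in WT KD livers. In 3xTg livers it stood at or above 38.2% ± 1.27 (SD, n = 4) on control diet and 63.3% ± 6.90 (SD, n = 4) on KD.

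Raw Arl4d counts ran from 50 in WT MCT liver 3 to 597 in 3xTg KD liver 3, which gives counting errors of 14.1% and 4.09%. The variance between the 4 livers was 82.3 times that of counting in WT control, 40.3 in WT MCT, 32.9 in 3xTg KD and 41.8 in 3xTg MCT. In WT KD it was 1.61 times, and in 3xTg control 0.257 times. The libraries carry molecular identifiers, and no source used here says whether counting used them, so these errors cover counting only.

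On KD against control diet in WT livers, the Arl4d difference was -1.70 ± 0.40 on the log2 scale (SE), or 0.308 of the control level, with a 95% interval of -2.52 to -0.88. Log2 differences of Arl4d are given relative to the median of the 13281 tested genes. KD livers were higher in 0 of 16 pairs. Across all genes, 3.70% were lower in every WT KD liver than in every WT control liver, and 0.648% passed edgeR's quasi-likelihood test, 0.361% higher and 0.286% lower. That count, 86 genes, was 13 to 52 without any 1 liver, the lowest without WT control liver 4, and 266 by DESeq2. The size of this difference rested on the upper control livers. Without WT control livers 3 and 4, an alternative added after the data were seen, it was -1.05 ± 0.42 (SE), and without liver 4 alone -1.25. WT KD livers 1, 2 and 4 held exocrine pancreas transcripts summing to 1032, 16083 and 4925 CPM over 17 genes, against 5.96 to 18.7 in WT control livers. Without all livers above 100 CPM of these transcripts, which leaves liver 3 alone in that group, the Arl4d difference was -1.94 ± 0.56 (SE).

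In 3xTg livers the difference on KD was 1.72 ± 0.39 (SE), or 3.29 times the control level, with a 95% interval of 0.90 to 2.53. KD livers were higher in 16 of 16 pairs, where 6.13% of all genes were higher in every KD liver and 5.39% of genes passed the test, 2.85% higher and 2.54% lower. That count, 716 genes, was 271 to 903 without any 1 liver, the lowest without KD liver 3 and the highest without KD liver 4. Leaving out any 1 liver gave 1.52 to 1.87. Marker sums of other cell types, scaled by library size alone, also differed in this comparison. The TMM factors averaged 1.24 in 3xTg KD and 1.01 in 3xTg control livers, so TMM scaling would lower the KD sums relative to control. Neutrophil transcripts (8 genes) summed to 4.65 to 94.7 CPM in 3xTg KD livers against 3.40 to 5.14 in 3xTg control, with 83.8 and 94.7 in livers 2 and 3. Kupffer cell and macrophage transcripts (12 genes) summed to 815 to 1189 CPM against 442 to 735, and stellate cell and fibroblast transcripts (10 genes) to 583 to 671 against 388 to 498. Endothelial transcripts (10 genes) summed to 609 to 709 CPM against 491 to 603, and cholangiocyte transcripts (6 genes) to 40.1 to 83.2 against 26.5 to 34.8. The 8 hepatocyte genes summed to 92658 to 120784 CPM against 128058 to 176729. In the TMM-scaled fit the median log2 difference was 3.04 over the 3 neutrophil genes tested and -0.73 over the hepatocyte genes. It was 0.30 for Kupffer cell and macrophage genes, 0.19 for stellate cell and fibroblast genes, and -0.03 for endothelial and for cholangiocyte genes. Without 3xTg KD livers 2 and 3 the Arl4d difference was 1.52 ± 0.46 (SE). The part of the other cell types was not tested.

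The difference between the KD responses of the genotypes, 3xTg minus WT, was 3.42 ± 0.56 (SE) for Arl4d, with a 95% interval of 2.26 to 4.57. The gene was chosen for this difference, so it is a description. The choice can enlarge the value, and the 95% interval does not allow for it. The same holds for the KD values and intervals of each genotype given above. Leaving out any 1 liver gave 2.97 to 3.59, the lowest without WT control liver 4, and leaving out WT control livers 3 and 4 gave 2.76 ± 0.55 (SE). Arl4d was 1 of 22 genes (0.166%) whose 4 KD livers all lay below the 4 control livers in WT and all above them in 3xTg. The opposite pattern was held by 16 genes. Among the 22, the immune receptor gene Lilr4b had a larger difference, 3.64 ± 0.63 (SE), at a lower level of 1.83 CPM over all livers, and Arl4d came next.

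**Figure D2:**
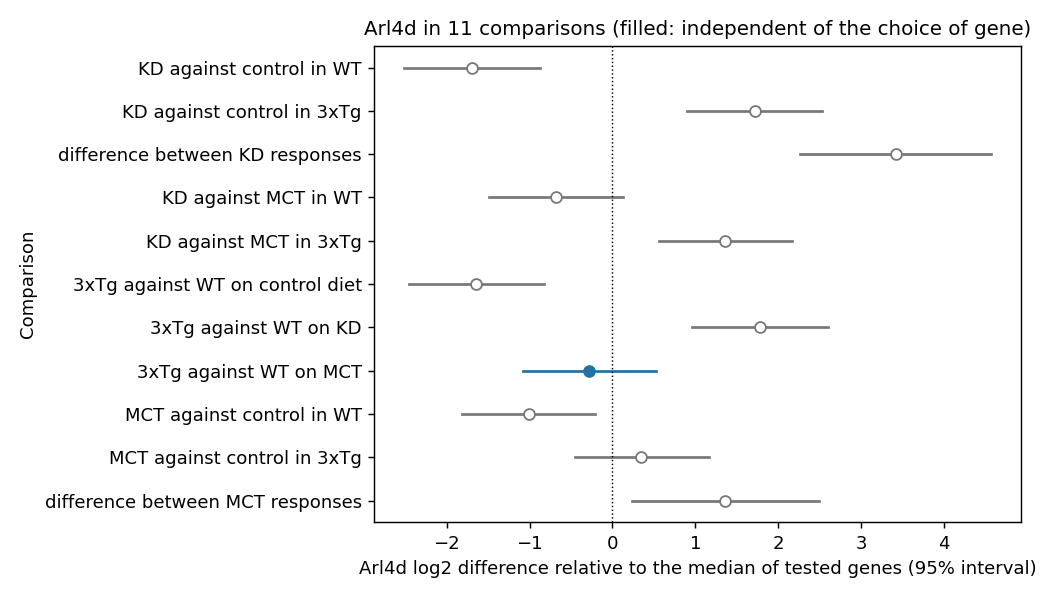
Arl4d log2 differences relative to the median of tested genes, with 95% intervals, in 11 comparisons from 1 fit of 24 livers. The filled point is the 1 comparison between groups that played no part in choosing the gene, and the open points are descriptions. The intervals of the open points do not allow for the choice of the gene. The interval of the filled point also rests on the spread shared by all 24 livers. The KD comparisons of the 2 genotypes lie on opposite sides of 0, at -1.70 and 1.72.

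Between genotypes, Arl4d was lower in 3xTg than in WT livers on control diet, by a log2 difference of -1.65 ± 0.39 (SE), with 3xTg higher in 0 of 16 pairs. On KD the sign was turned, at 1.78 ± 0.40 (SE), with 3xTg higher in 16 of 16 pairs. Across all genes 4.31% were lower without overlap in 3xTg on control diet and 6.79% higher without overlap on KD. The control diet value was -0.99 ± 0.42 (SE) without WT control livers 3 and 4. Both comparisons share livers with the diet comparisons and restate the same levels.

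On the MCT diet, where neither group compared was used in choosing the gene, Arl4d did not pass the test between genotypes. The SE, interval and edgeR p of this comparison rest on a spread estimated from livers of all 6 groups. The difference, 3xTg minus WT, was -0.28 ± 0.39 (SE), with a 95% interval of -1.08 to 0.52 and an adjusted p of 0.897 in edgeR's quasi-likelihood test. The 3xTg liver was higher in 6 of 16 pairs. An exact two-sided permutation test of the log2 CPM gave p = 0.686, where 0.0286 is the smallest p that 4 against 4 livers allow. Of all genes, 1.74% passed the same test. The sign and size rested on few livers: the difference was 0.08 without WT MCT liver 1 and -0.76 without 3xTg MCT liver 4. Pancreas transcripts summed to 17928 CPM in WT MCT liver 3 and to 2993 and 9215 CPM in 3xTg MCT livers 3 and 4. Without the livers holding pancreas transcripts the difference was -1.20 ± 0.42 (SE).

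The comparisons of MCT with control diet use the control livers by which the gene was chosen, so they are a description. In WT livers the difference was -1.01 ± 0.38 (SE), with MCT higher in 2 of 16 pairs. In 3xTg livers it was 0.35 ± 0.39 (SE), with MCT higher in 8 of 16 pairs, and the difference between the genotypes was 1.36 ± 0.55 (SE). The 3xTg value rested on MCT liver 4, which held 9215 CPM of pancreas transcripts and 216 CPM of skeletal muscle transcripts (6 genes). Muscle transcripts also summed to 125 CPM in 3xTg MCT liver 1, where Arl4d was not high. Without liver 4 the 3xTg value was -0.13, and without all livers holding pancreas transcripts -0.30 ± 0.41 (SE). The KD and MCT comparisons of 1 genotype share their control livers.

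Set directly against MCT, KD livers were lower in WT, at -0.68 ± 0.39 (SE), with KD higher in 4 of 16 pairs. In 3xTg livers KD was higher by 1.36 ± 0.39 (SE), in 15 of 16 pairs, the exception being 3xTg MCT liver 4 against KD liver 4. Without the livers that held pancreas transcripts the 3xTg value was 2.01 ± 0.42 (SE).

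The levels of several genes followed Arl4d across the livers. Over 24 livers, the log2 CPM of Sugp2, a gene for a splicing-related protein, had a Pearson r of 0.81 with Arl4d (Spearman rho 0.80). Neat1, the long noncoding RNA that builds nuclear paraspeckles, had r = 0.80 (rho 0.72). Next came Nars2 (r = 0.79), the mitochondrial asparaginyl-tRNA synthetase, Abcb10 (0.79), a mitochondrial transporter, Bcl2l2 (0.79), an inhibitor of apoptosis, and Ikbkg (0.78), a subunit of the kinase that activates NF-kB. The lowest were Sars (-0.82), the cytosolic seryl-tRNA synthetase, Fth1 (-0.80), the ferritin heavy chain, Prelp (-0.78) and Ift46 (-0.78). Among 11411 named genes with a mean of at least 1 CPM, the middle 90% of r values ran from -0.51 to 0.49. The points share libraries, depth and the 6 groups, and these values are a description. Without the 2 livers farthest from the Arl4d median, WT control 4 and 3xTg KD 3, r was 0.71 for Sugp2, 0.70 for Neat1 and -0.72 for Sars.

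Neat1 followed Arl4d also among livers of the same group. Its correlation of deviations from group means was 0.68, against 0.79 for Sugp2 and 0.81 for Mug-ps1, the highest of all. WT control livers 3 and 4, the high Arl4d livers of that group, held 21.7 and 41.7 CPM of Neat1 (by library size), against 7.27 and 3.93 in livers 1 and 2. WT MCT liver 1, highest of its group in Arl4d, held 19.6 CPM. The 4 3xTg KD livers held 10.5 to 18.8 CPM, and the 4 3xTg control livers 4.98 to 6.62. The 3xTg MCT liver 4 departed from this, with Arl4d high and Neat1 at 4.58 CPM. Xist, a nuclear RNA of female cells, had r = 0.72 and a within-group value of 0.50 on library-size CPM, while Malat1, another nuclear RNA, had r = -0.01. On KD, Neat1 itself differed by -1.56 ± 0.46 (SE) in WT and 1.0 ± 0.46 (SE) in 3xTg, with edgeR adjusted p of 0.127 and 0.233, so it did not pass. The share of gene counts from the mitochondrial genome was lower in several of the livers high in Arl4d. WT control livers 3 and 4 held 8.23% and 7.84%, against 12.8% and 13.0% in livers 1 and 2. WT MCT liver 1 was lowest of its group at 9.66%, and liver 3, the lowest in Arl4d, was highest at 16.7%. The 3xTg MCT liver 4 held 8.90%, against 14.0% to 18.1% in the other 3 livers. The shares ran from 6.11% to 7.37% in 3xTg KD and from 6.54% to 14.1% in 3xTg control and 8.80% to 16.0% in WT KD, where Arl4d varied little. The part of Neat1, Xist and the mitochondrial share in the Arl4d levels was not tested.

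**Figure D3:**
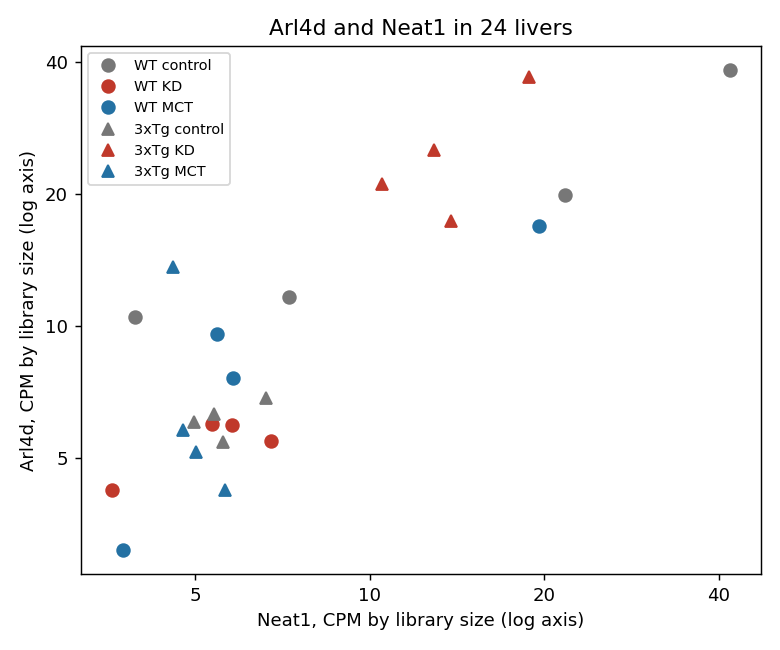
Arl4d against Neat1 in 24 livers, both as CPM by library size on log axes, with circles for WT, triangles for 3xTg and colours for diet. Most livers lie along 1 band, with WT control livers 3 and 4 and the 3xTg KD livers at its upper end and 3xTg MCT liver 4 above it.

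The ARF family gave a background for these values. Of 29 other ARF, ARL and SAR genes 24 were tested, and on KD their log2 differences ran from -0.52 (Arf5) to 0.43 (Arl2) in WT, with a median of -0.04, against 0.00 over all genes. In 3xTg livers they ran from -0.43 (Arl3) to 1.04 (Arl4a), with a median of 0.02. The ratio of the highest to the lowest group mean was 3.43 for Arl4d, whose choice rests on those groups, 2.07 for Arl4a and 1.70 for Arl4c. Per kilobase of exon, Arl4d averaged 8.27 CPM over 24 livers and ranked 10 of 25, between Arl8b at 14.0 and Arl4a at 6.4, while Arl4c stood at 0.808.

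Arl4a, the closest relative, was the 1 family gene that passed the test on KD in 3xTg livers, where it rose by 1.04 ± 0.30 (SE), adjusted p 0.0405 by edgeR. Its 3xTg KD livers held 83.9, 58.7, 78.2 and 37.1 CPM and its 3xTg control livers 34.5, 26.0, 32.1 and 31.8 CPM. The KD livers all lay above the control livers, liver 4 narrowly. In WT livers Arl4a differed by 0.28 ± 0.29 (SE) and did not pass (adjusted p 0.756), and the difference between responses, 0.76 ± 0.42 (SE), did not pass either (adjusted p 0.404 by edgeR). The Arl4a call was lost in 8 of 16 alternatives, among them those without any single 3xTg control liver. Arl4c differed by 0.20 ± 0.24 (SE) in WT and 0.28 ± 0.23 (SE) in 3xTg and passed in neither. Arl4d was not set against these genes in a test of its own.

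**Figure D4:**
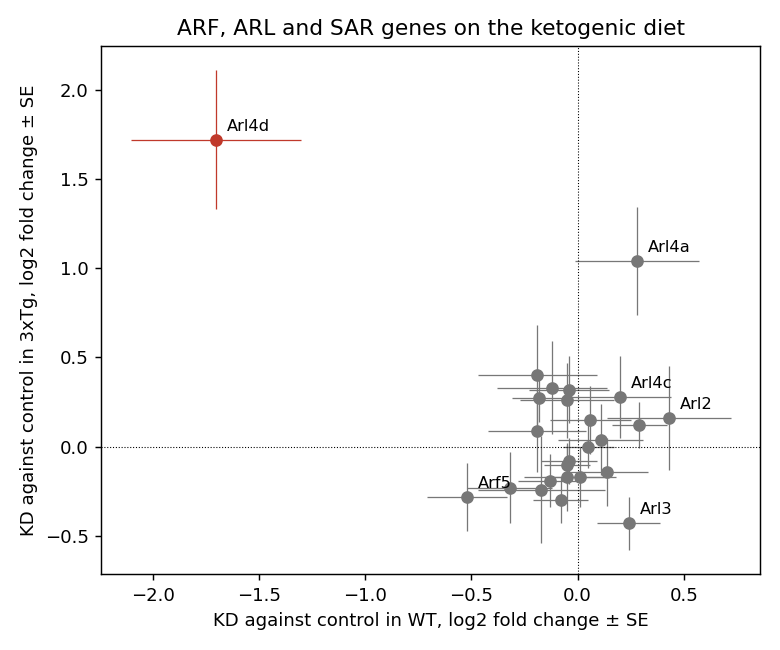
KD against control log2 differences ± SE in WT (horizontal) and 3xTg livers (vertical) for Arl4d (red) and 24 other tested ARF, ARL and SAR genes (grey). Arl4d, chosen by these values, lies at -1.70 and 1.72, and Arl4a is the highest of the others in 3xTg livers.

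The genes that act with ARF proteins were counted together. A union of 82 listed genes, of which 73 were tested, joined the family with its exchange factors, its GTPase-activating proteins and the partners reported for ARL4 proteins. On KD in WT 0 of 73 passed by edgeR and by DESeq2, against 0.648% of all genes by edgeR, and 6 had an unadjusted p under 0.05. In 3xTg 3 passed, all higher, or 4.11% against 5.39% of all genes in either direction and 2.85% higher: Arl4a, Cyth4 and Adap2. Cyth4, a cytohesin of blood cells, rose by 1.33 ± 0.32 (SE), adjusted p 0.0154 by edgeR. Its livers 2 and 3, which hold neutrophil transcripts, held 15.1 and 18.2 CPM against 5.38 and 5.22 in livers 1 and 4, and without them the difference was 0.29 with an adjusted p of 0.817 by edgeR. Adap2, a GTPase-activating protein for ARF6, rose by 0.78 ± 0.18 (SE), adjusted p 0.0134 by edgeR. Arf6, a GTPase that cytohesins activate, did not pass in WT (-0.18 ± 0.13 SE) or in 3xTg (0.27 ± 0.13 SE). Cyth2 did not pass in either genotype (0.23 ± 0.12 and 0.16 ± 0.12 SE). In the difference between KD responses 0 of 73 passed by edgeR and by DESeq2, and 8 had an unadjusted p under 0.05. Over all genes 0.00753% passed by edgeR. All genes here include Arl4d, which was chosen for this difference, so the share is not a background independent of that choice. The number passing ran from 0 to 114 without any 1 liver, the highest without 3xTg KD liver 4, and was 253 by DESeq2.

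Between genotypes 5 of 73 were higher in 3xTg on KD, or 6.85% against 4.27% of all genes higher and 8.49% in either direction, among them the axon guidance receptor Robo1. Robo1 also was higher in 3xTg on control diet, by 2.27 ± 0.33 (SE), adjusted p 0.000228 by edgeR, where 1.86% of genes passed and 0.798% were higher, and by 1.63 ± 0.33 (SE) on MCT, adjusted p 0.00612. It did not differ by diet within 3xTg in the test (KD -0.17 ± 0.31 SE).

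Immediate early and stress genes, which cells induce within minutes of a signal, included 3 that rose in the 3xTg KD livers. Of 28 listed 23 were tested, and in 3xTg 3 passed, all higher, where 5.39% of all genes passed in either direction and 2.85% higher, with a median log2 difference of 0.49 over the tested members against 0.00 for all genes. In WT 0 of 23 passed by edgeR and by DESeq2, against 0.648% of all genes by edgeR, 1 had an unadjusted p under 0.05, and the median was -0.05. Gadd45b rose by 2.07 ± 0.43 (SE), adjusted p 0.00704, Dusp1 by 1.86 ± 0.53 (SE), adjusted p 0.0421, and Btg2 by 1.55 ± 0.40 (SE), adjusted p 0.0240, all by edgeR. Btg2, an antiproliferative gene, held 29.0, 29.1, 26.3 and 18.9 CPM in 3xTg KD livers and 10.5, 7.07, 6.4 and 11.0 CPM in 3xTg control livers, with no overlap. The response of these genes in 3xTg minus that in WT passed for 0 of the 23 by edgeR and 3 by DESeq2, and 7 had an unadjusted p under 0.05. The count in 3xTg was 1 to 5 without any 1 liver, the highest without KD liver 4, and the calls of Btg2 and Dusp1 were lost in 6 of 16 alternatives each, that of Gadd45b in 1 of 16. Without 3xTg KD livers 2 and 3, 0 of 23 passed in 3xTg, where the count over all tested genes also fell, from 716 to 76. Over all genes that count was 271 to 903 without any 1 liver.

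Among genes other than Arl4d, those with the smallest p in the difference between KD responses were Lilr4b, Btg1 and Lilrb4a. Btg1, an antiproliferative relative of Btg2, had a difference of 1.61 ± 0.31 (SE), from -0.84 ± 0.22 in WT and 0.76 ± 0.22 in 3xTg, adjusted p 0.0535 by edgeR. Lilr4b had an adjusted p of 0.0513 by edgeR. Lilr4b and Lilrb4a are near-identical receptor genes of myeloid cells, and how the authors' counting split reads between them is uncertain. Lilrb4a was low, at most 1.24 CPM in any group mean. None of the 3 passed the threshold of 0.05.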

How the data were processed

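Liver polyA RNA from 24 female mice, 4 per group as the labels state, was analysed from 1 deposited table of whole-number gene counts made by the authors. Trimmomatic, STAR and GRCm38 are named in the submitters' processing notes. No source used here gives the strand setting or says whether counting used molecular identifiers. Entries naming no gene (21.5% to 30.1% per library) were left out. Libraries held 12009432 to 20108831 gene counts, and 0 pairs of libraries were identical. The filterByExpr function left 13281 genes, and 1 edgeR 4.0.16 quasi-likelihood fit (R 4.3.3, TMM scaling) of all 24 livers with 18 residual degrees of freedom was used, with Benjamini-Hochberg adjustment over all genes at 0.05. Log2 CPM used a prior count of 2. Scaling by library size, RLE factors, no filter, DESeq2 1.42.0, a replicate block, fits on just the groups compared and leaving out livers were tried. After the data were seen, a legacy fit and leaving out WT control replicates 3 and 4 were added. The edgeR fit was also run on simulated counts with known changes.

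Arl4d and the gene lists were chosen with earlier results of these data known. Named genes were Arl4a and Arl4c, up to 4 called members per list and contrast, tested genes within 250 kb, the genes of highest and lowest correlation, and the 3 other genes of smallest p in the difference between KD responses. A selection is printed, results for some are left out, and Arf6, Cyth2, Xist, Malat1 and the family genes at the ends of a range were chosen after their values were seen. Tests of Arl4d planned for MCT against control diet are not reported, since the control livers chose the gene.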

Additional observations from a re-analysis of the deposited data

Results flagged for a closer look

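A pair of values of Arl4d stood out. The library-size CPM of 3xTg MCT liver 4, 13.6, lay far above the other 3 livers of its group. Its gap to the nearest liver was 0.833 of the group's range, just over Dixon's critical value for 4 samples. Chance alone gives such a gap in some groups of 4, and several were looked at. This liver holds pancreas and muscle transcripts, 9215 and 216 CPM, and the Arl4d comparisons without it are given with the results above. Muscle transcripts were also found in livers not high in Arl4d, at 125 CPM in 3xTg MCT liver 1 and 145 CPM in WT KD liver 4. On TMM-normalised values the gap did not pass the same criterion.

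The KD response of Arl4d differed between the genotypes by 3.42 on the log2 scale. Every 3xTg KD liver lay above, and every WT KD liver below, the control livers of its genotype. The gene was chosen for this difference, so it has no test of its own here.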

How the results depend on the processing

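Of 211 Arl4d values under alternative settings, 203 were classed as unchanged, 5 moved and 3 turned in sign. For MCT against control and for genotype on MCT, unchanged meant the same sign and test outcome, whatever the size. For the others it meant a shift below the SD between livers. Values classed as unchanged include genotype on MCT at -1.20 and the difference between MCT responses at 0.44, both without livers holding pancreas transcripts. MCT in WT at -0.36 without WT control replicates 3 and 4 is another. Leaving out the livers with pancreas transcripts moved KD against MCT in 3xTg to 2.01 and turned MCT against control in 3xTg to -0.30, which was also -0.13 without 3xTg MCT replicate 4. Without WT MCT replicate 1 the genotype difference on MCT was 0.08. Leaving out WT control replicates 3 and 4 moved KD in WT to -1.05, the difference between KD responses to 2.76 and the genotype difference on control diet to -0.99. Leaving out 1 liver gave -1.87 to -1.25 for KD in WT, 1.52 to 1.87 in 3xTg, 2.97 to 3.59 for their difference, -0.76 to 0.08 for the genotype difference on MCT and -0.13 to 0.55 for MCT in 3xTg. Scaling by library size alone shifted the median of all genes by 0.31 for KD in 3xTg, 0.45 for the difference between KD responses and 0.43 for genotype on KD.

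Of the 73 ARF-related genes, with all genes passing under the same setting in brackets, 14 (1757) passed on KD in 3xTg with library size alone, 6 (979) with DESeq2, 0 (76) without 3xTg KD replicates 2 and 3, and 0 to 5 (271 to 903) without 1 liver. In the difference between KD responses 7 (975) passed with library size alone. For genotype on KD the counts were 35 (4640) with library size alone, 2 (643) with the compared groups alone, 1 (142) without 3xTg KD replicates 2 and 3, and 2 to 8 (514 to 1322) without 1 liver. They were 0 (94) without livers holding pancreas transcripts, which leaves 1 WT KD liver, assumed to vary like the other groups, so that count says little. Cyth4 for genotype on KD was -0.01 without 3xTg KD replicates 2 and 3. The cause of these changes was not tested.

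Replicate numbers were not shown to pair the livers: correlations of same-numbered deviations ran from -0.51 to 0.44. Their mean was 0.16 for livers numbered 4, and 0.04, 0.02 and -0.03 for numbers 1, 2 and 3. Livers of different numbers were not compared, so a shared effect of a number was not tested. With a replicate block, KD gave -1.62 in WT and 1.75 in 3xTg, the difference between them 3.38, and genotype on MCT -0.34, and 9 genes of all tested passed for the difference between KD responses.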

Other observations

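The nearest tested gene to Arl4d, Rdm1, 29.4 kb upstream, differed on KD by 0.19 ± 0.31 (SE) in WT and -0.34 ± 0.31 (SE) in 3xTg and did not pass edgeR's test in either. Of 10 tested genes within 250 kb, 2 passed in some comparison. The matching share of all genes, those passing in any comparison, is not given here. The shares below are for single comparisons, so whether 2 of 10 is unusual was not tested. Brca1 was higher in 3xTg on KD by 1.43 ± 0.30 (SE), adjusted p 0.00587 by edgeR, where 8.49% of all genes passed. Its KD differences, -1.12 ± 0.31 (SE) in WT and -0.22 ± 0.28 (SE) in 3xTg, did not pass. On KD in 3xTg, where 5.39% passed, Rnd2 differed by -1.37 ± 0.37 (SE), adjusted p 0.0347 by edgeR.

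Among genes responsive to glucocorticoids, 14 were tested and 2 rose on KD in 3xTg, where 2.85% of all genes rose and 5.39% passed in either direction, with a list median of 0.20. Tsc22d3, a glucocorticoid-induced regulator of inflammation, rose by 0.91 ± 0.22 (SE), adjusted p 0.0179 by edgeR, and Sgk1, a kinase, by 0.70 ± 0.21 (SE), adjusted p 0.0494 by edgeR. The Tsc22d3 call was lost in 5 of 16 alternatives and the Sgk1 call in 12 of 16. In WT 0 of 14 passed by edgeR, against 0.648% of all genes, 5 had an unadjusted p under 0.05, and the median was 0.52. Of 18 tested clock genes 0 passed on KD in either genotype by edgeR, 0 in WT and 2 in 3xTg had an unadjusted p under 0.05, where 0.648% and 5.39% of all genes passed, with list medians of -0.02 in WT and -0.05 in 3xTg. The LXR list, 10 tested genes that include Arl4c, had 1 lower in each genotype on KD, where 0.286% of all genes fell in WT and 2.54% in 3xTg, the desaturase gene Scd1, at -2.76 ± 0.54 (SE) in WT and -2.54 ± 0.53 (SE) in 3xTg. The diet checks moved in both genotypes: Mogat1, a monoacylglycerol acyltransferase, rose by 3.30 ± 0.33 (SE) in WT and 4.01 ± 0.36 (SE) in 3xTg. Of 15 targets of PPARA, the fatty acid sensor, 2 rose in WT and 7 in 3xTg, against 0.361% and 2.85% of all genes, and of 10 lipogenesis genes 6 fell in WT and 8 in 3xTg, against 0.286% and 2.54%.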
